A study of Mus musculus with 8 samples.

Results

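Macrophages are commonly sorted into classically activated cells, which respond to interferon-gamma and bacterial products, and alternatively activated cells, which respond to interleukin-4 (IL-4) and interleukin-13. The markers examined here were *Arg1*, *Retnla*, *Chi3l3*, *Chi3l4*, *Mrc1*, *Il4ra* and *Irf4* of the alternative state and *Nos2*, *Cd86* and *Irf5* of the classical state. Every probe whose deposited gene symbol was one of these 10 genes was taken, which gave 17 of the 45281 probes on the array. *Chi3l3* and *Chi3l4* are older symbols of the genes that RefSeq now lists as Chil3 and Chil4, and all 10 genes had a RefSeq entry.

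The question was which of these markers could be measured in untreated peritoneal macrophages and whether their level differed after loading with acetylated low density lipoprotein (Ac-LDL), a chemically modified lipoprotein that macrophages take up until they become foam cells. Peritoneal macrophages were elicited with thioglycollate, an irritant broth, from C57/BL6 mice aged 8 weeks in both groups, and the labels name no genetic alteration. 4 samples received Ac-LDL at 120 μg/ml for 24 h and 4 control samples were mock treated for the same time, and each group was numbered as biological replicates 1 to 4. According to the Methods the donors were male, the cells adhered to plastic, and the culture medium contained L-929 conditioned medium, a source of macrophage colony-stimulating factor. The labels do not say whether a sample came from 1 mouse or from several.

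RNA was hybridized to Illumina bead arrays, on which the signal of each probe is the mean intensity of many copies of a bead. A detection P value ranks the probe against the negative control beads of its array, and a probe was called detected at a detection P value of at most 0.05. Between 36.8% and 38.5% of all probes were detected per array, and the lowest signal of a detected probe was between 48.4 and 53.8. Slide 1 carried replicates 1 and 2 of both groups, and slide 2 carried replicates 3 and 4. Macrophage markers were present throughout, as all 11 on the array were tested and their summed signal was 67950 to 94240 on control arrays and 70150 to 88530 on Ac-LDL arrays. Most of this sum came from the lysozyme probes named *Lyz*, at 27920 to 36170, and *Lyz2*, at 23230 to 32000. The sum therefore says little of the dimmer markers.

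Arginase 1, the product of *Arg1*, turns arginine into ornithine and urea, and inducible nitric oxide synthase, the product of *Nos2*, uses the same arginine to make nitric oxide. *Retnla*, *Chi3l3* and *Chi3l4* encode secreted proteins induced by IL-4, and *Mrc1* encodes the mannose receptor. *Il4ra* encodes the chain of the receptor that binds IL-4, *Irf4* and *Irf5* encode transcription factors linked with the alternative and the classical state, and *Cd86* encodes a costimulatory ligand for T cells.

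A level on this array is read through a single 50-base probe. The probes below are those of the brightest marker, *Arg1*, and some of those with no or marginal signal, for which a missing signal rests on the letters of the probes. Probes that may lie in untranslated sequence were not printed, which leaves out those of *Irf4* and *Il4ra* and the other probes of *Nos2* and *Chi3l3*. All are in lower case.
Arg1 ILMN_2952275: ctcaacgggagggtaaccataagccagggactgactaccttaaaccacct
Arg1 ILMN_2775157: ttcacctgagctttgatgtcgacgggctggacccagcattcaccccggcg
Retnla ILMN_1226472: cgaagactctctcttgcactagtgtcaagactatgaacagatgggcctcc
Chi3l3 ILMN_3043036: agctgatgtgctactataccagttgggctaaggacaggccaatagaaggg
Chi3l4 ILMN_1222707: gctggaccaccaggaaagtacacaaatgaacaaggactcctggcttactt
Chi3l4 ILMN_2524865: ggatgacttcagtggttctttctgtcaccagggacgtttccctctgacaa
Nos2 ILMN_1223499: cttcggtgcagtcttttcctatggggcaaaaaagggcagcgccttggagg
In the deposited annotation, whose genome build is not named, the first *Arg1* probe lies on the minus strand of chromosome 10 at 24635421 to 24635470 and begins at base 996 of its transcript, and the second begins at base 759. The *Retnla* probe lies on the plus strand of chromosome 16 at 48843687 to 48843736. The *Chi3l3* and *Chi3l4* probes shown all lie on the minus strand of chromosome 3, and the *Nos2* probe shown begins at base 3546 of its transcript, with no chromosome position given. Of all member probes, *Chi3l4* ILMN_2524865 alone shared a run of at least 16 bases with a probe of another gene symbol, 17 bases with that of 9530085L02Rik. The file does not say whether a probe lies in coding or untranslated sequence.

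*Arg1*, *Mrc1*, *Irf5* and *Cd86* were detected by each of their probes on all 8 arrays, while *Retnla*, *Irf4* and *Nos2* were detected on none. *Chi3l3*, *Chi3l4* and *Il4ra* lay at the detection limit. In all, 7 of the 17 member probes were detected on all 8 arrays and 6 on 0 arrays. A test was made of every probe with detection on 4 or more of the 8 arrays, 17122 in all, which included 9 member probes of 6 genes, 52.9% of the member probes against 37.8% of all probes.

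**Figure D1:**
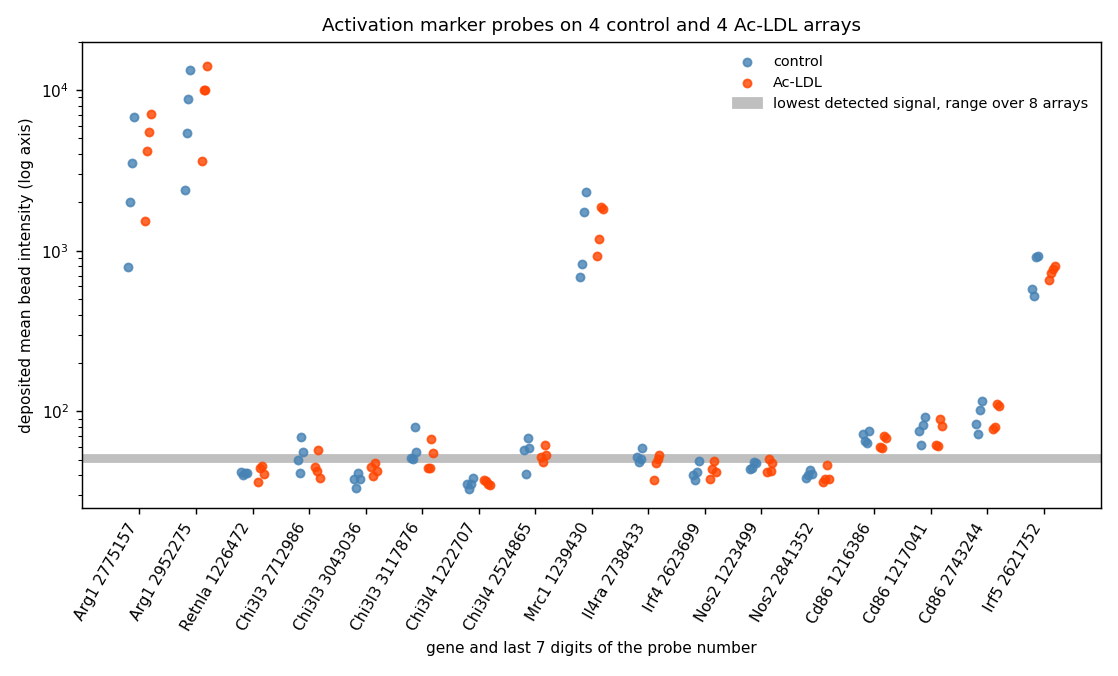
Deposited mean bead intensity (vertical log axis) of the 17 probes of the 10 activation markers on the 4 control and 4 Ac-LDL arrays, each point being 1 array. The grey band spans the lowest detected signal, 48.4 to 53.8 over the 8 arrays. The *Arg1*, *Mrc1* and *Irf5* points lie far above the band, the *Cd86* points just above it, and the *Retnla*, *Irf4* and *Nos2* points at or under it.

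None of the 9 member probes was called by limma's moderated test at a Benjamini-Hochberg adjusted p under 0.05, and 0 had an unadjusted p under 0.05, where 5.2% of all tested probes did. Over all tested probes 7 were called, which is 0.0409%. A block for the replicate number gave 76 calls (0.444%) and a block for the slide gave 55 (0.321%), and the count of member probes called was 0 in both. At an unadjusted p under 0.05 the count of member probes was 3 with the replicate block, both *Arg1* probes and *Mrc1*, where 13.8% of all probes passed, and 0 with the slide block, where 12.1% did. The study's kind of test, an unpaired test of equal variance, called 0 member probes and 0 of all probes after adjustment. The paper's array lists name a P value and a fold-change limit and no adjustment. At an unadjusted p under 0.05 this unpaired test passed 6.07% of all tested probes. Its lowest unadjusted p among the member probes was 0.336, for *Irf5*. 5 of the 9 member probes were higher and 4 lower with Ac-LDL, and for none of them did the 2 groups of arrays separate without overlap, where 3.80% of all tested probes did. 3 of the 9, both *Arg1* probes and 1 *Cd86* probe, had the higher Ac-LDL array in all 4 same-numbered pairs, and 11.5% of all tested probes were.

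*Arg1* was the brightest marker and the one that differed most between arrays of the same group. The signal of probe ILMN_2952275 was 2402, 5376, 8806 and 13277 on control arrays 1 to 4. It was 3628, 9955, 10036 and 14093 on Ac-LDL arrays 1 to 4. The 2 groups overlapped almost wholly, and replicate 1 gave the lowest array of each. On control arrays this probe ranked between the 97.7 and 99.7 percentiles of all probes. After background correction and quantile normalization its log2 intensity averaged 12.54 ± 1.09 on control arrays and 13.11 ± 0.80 on Ac-LDL arrays (SD, n = 4 each). The log2 fold change was 0.57, or 1.49-fold, with a 95% interval of -0.60 to 1.75 (adjusted p = 0.979 from limma). An exact two-sided permutation test over all 70 assignments of the arrays, which ignored replicate number and slide, gave p = 0.457. The difference was smaller than the spread between arrays of 1 group, as the normalized level differed 5.84-fold among the control arrays.

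The other *Arg1* probe, ILMN_2775157, had the same pattern at a lower signal. It read 786, 2011, 3529 and 6832 on control arrays 1 to 4 and 1521, 4200, 5497 and 7129 on Ac-LDL arrays 1 to 4. Its log2 intensity averaged 11.19 ± 1.36 in control and 12.03 ± 0.95 with Ac-LDL (SD, n = 4 each). The log2 fold change was 0.84, or 1.79-fold, with an interval of -0.59 to 2.27 (adjusted p = 0.968 from limma, exact two-sided permutation p = 0.40). These intervals, from the fit without a block, hold both a modest fall and a rise of several-fold. That fit therefore did not settle the size of an *Arg1* difference.

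Set against its own partner array, each Ac-LDL array had the higher *Arg1* level. For ILMN_2775157 the log2 differences of pairs 1 to 4 were 1.32, 0.98, 0.76 and 0.29, and for ILMN_2952275 they were 0.94, 0.83, 0.27 and 0.26. The standard deviation of these differences over the 4 pairs was 0.43 and 0.36, below their means of 0.84 and 0.57. When replicate number entered the fit as a block, the interval of ILMN_2775157 narrowed to 0.50 to 1.17 (adjusted p = 0.0595 from limma, rank 100 of 17122 by p). For ILMN_2952275 it became 0.28 to 0.87 (adjusted p = 0.124 from limma). Neither passed the threshold. Blocking on the slide gave adjusted p from limma of 0.449 and 0.575. The differences were larger on slide 1 than on slide 2 for both probes, with means of 1.15 and 0.52 for ILMN_2775157 and of 0.88 and 0.27 for ILMN_2952275, and the difference between the slides was not tested.

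By its standard deviation over the 8 arrays, ILMN_2775157 ranked 9 and ILMN_2952275 ranked 29 of the 17122 tested probes. Much of this lay between the slides, where the mean log2 intensity of ILMN_2775157 was 10.82 on the first and 12.40 on the second. Leaving out control replicate 1 alone, the array with the lowest *Arg1* level, brought the log2 fold changes down to 0.23 and 0.07. Its partner, the lowest Ac-LDL array, stayed in. Without that Ac-LDL array alone the log2 fold changes were 1.285 and 0.958. With both arrays of number 1 left out under the replicate block they were 0.677 and 0.454. Leaving out control replicate 4 alone raised the log2 fold changes to 1.30 and 0.92, and both arrays of number 4 under the block gave 1.02 and 0.68. Control replicate 1 also had the highest summed signal of 6 mesothelial and fibroblast markers, 6274 against 4446 to 5072 on the other arrays, and the part of this in the *Arg1* values was not tested. In a population of cells, more cells of a type and more RNA per cell cannot be told apart.

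**Figure D2:**
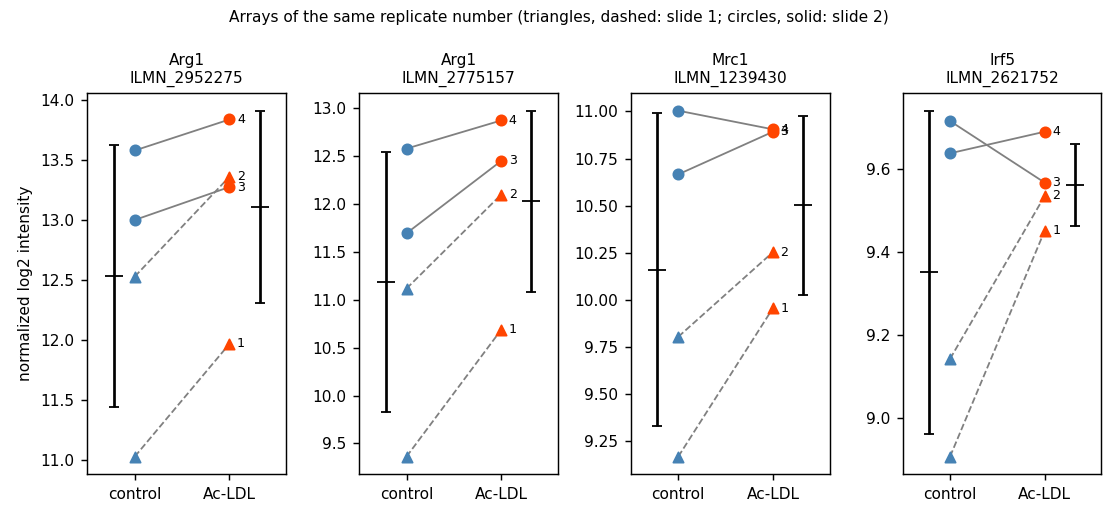
Normalized log2 intensity (vertical axes) of both *Arg1* probes, *Mrc1* and *Irf5* on control and Ac-LDL arrays, with lines joining arrays of the same replicate number, triangles and dashed lines for slide 1, circles and solid lines for slide 2, and black bars for the mean ± SD of 4 arrays. All 4 *Arg1* lines rise in both panels, while 1 *Mrc1* line and 1 *Irf5* line fall.

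*Mrc1*, measured by probe ILMN_1239430, was clearly present and varied in the same manner. Its signal was 688, 821, 1744 and 2333 on control arrays 1 to 4 and 928, 1187, 1870 and 1829 on Ac-LDL arrays 1 to 4. The arrays of slide 1 were all below those of slide 2, with mean log2 intensities of 9.80 and 10.87. *Mrc1* went from 10.16 ± 0.83 (SD, n = 4) in control to 10.50 ± 0.47 (SD, n = 4) with Ac-LDL on the log2 scale. The log2 fold change was 0.34 with an interval of -0.50 to 1.18 (adjusted p = 0.986 from limma, exact two-sided permutation p = 0.457), within the spread between arrays of 1 group. Pairs 1 to 4 differed by 0.79, 0.45, 0.23 and -0.10, and without control replicate 1 alone the log2 fold change was 0.01. Without Ac-LDL replicate 1 alone it was 0.52, and with both arrays of number 1 left out under the replicate block it was 0.19.

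Of the 9 tested member probes, 8 were higher on slide 2 than on slide 1 in their mean. For *Mrc1*, *Irf5* and 2 *Cd86* probes the slides did not overlap at all, where 24.2% of all tested probes behaved so. As both groups were split evenly over the slides, the slide difference cancels in the difference between the group means. It still widens the spread against which that difference was tested without a block.

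The genes whose pattern over the 8 arrays lay closest to *Arg1* were *Vsig4*, *Ccl6* and *Fcna*, out of 12422 other tested gene symbols. *Vsig4* encodes a complement receptor of macrophages, *Ccl6* a chemokine and *Fcna* a ficolin. Closeness was the root mean square difference of log2 intensity from ILMN_2952275 after centring each probe within each slide, and it was 0.20, 0.22 and 0.22, where *Arg1* itself spread by 0.64 about its slide means. *Vsig4* had log2 intensities of 6.69, 8.05, 8.42 and 8.70 on control arrays 1 to 4 and 7.69, 8.66, 9.00 and 9.40 on Ac-LDL arrays 1 to 4. Like *Arg1*, it was lowest on replicate 1 of each group and higher on the Ac-LDL array of every pair. This follows in large part from its being picked by closeness over the same arrays. For *Mrc1* the nearest genes were *Folr2*, the gene of a folate receptor, *Mef2c*, the gene of a transcription factor, and 5430427O19Rik, at 0.07, 0.08 and 0.09, where *Mrc1* itself spread by 0.29. These likenesses are descriptions over 8 arrays that share 2 slides.

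*Retnla* was not detected on any array. Its signal lay between 40.3 and 42.1 on control arrays and between 36.1 and 45.6 on Ac-LDL arrays, and its lowest detection P value was 0.186. Its level was thus at background in both groups and no fold change can be given.

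*Chi3l3* was read by 3 probes that differed in detection. Probe ILMN_3117876 was detected on 3 control and 2 Ac-LDL arrays, with signals of 50.8, 50.4, 79.4 and 56.1 in control and 44.4, 44.2, 67.4 and 54.7 with Ac-LDL. Probe ILMN_2712986 was detected on 3 arrays. It read 49.4, 41.0, 69.3 and 55.9 in control and 45.2, 42.4, 57.7 and 38.6 with Ac-LDL. Like ILMN_3117876, it was brightest on replicate 3 of each group. ILMN_3043036, which begins at base 68 of the transcript, was detected on 0. The tested probe had a log2 fold change of -0.18 with an interval of -0.71 to 0.34 (adjusted p = 0.987 from limma), and its sign turned without control replicate 3, the brightest array. *Chi3l4* was likewise marginal, as ILMN_2524865 was detected on 6 arrays at signals of 51.7 to 68.3, and missed on replicate 2 of each group at 40.9 and 48.5, while ILMN_1222707 was detected on 0. The log2 fold change of the former was -0.01, with an interval of -0.41 to 0.39 (adjusted p = 1.00 from limma). For both tested probes replicate 3 was the brightest array of each group.

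*Il4ra*, the gene of the receptor chain that binds IL-4, lay at the limit as well. Its signal was 52.0, 48.0, 50.6 and 58.7 on control arrays 1 to 4 and 37.3, 47.8, 50.7 and 53.8 on Ac-LDL arrays 1 to 4. It was detected on replicate 4 of each group and missed narrowly on control replicate 1, at a detection P value of 0.0502. *Irf4* was detected on 0 arrays, with signals of 37.5 to 48.7 in control and 37.9 to 49.4 with Ac-LDL. When all 45281 probes were tested without the filter, none of the 8 member probes that it had left out was called by limma, and the lowest unadjusted p among them led to an adjusted p of 0.88, for *Chi3l3* ILMN_3043036.

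*Nos2*, the marker most often set against *Arg1*, was not detected by either of its probes on any array. Probe ILMN_1223499 read 43.7 to 48.3 on control arrays and 42.1 to 50.2 on Ac-LDL arrays. Probe ILMN_2841352 read 38.3 to 42.9 and 36.1 to 46.0. At these signals a change in *Nos2* could not be measured in either direction, and a low level is not shown to be absent.

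*Irf5*, measured by ILMN_2621752, was present at signals of 579, 525, 911 and 928 on control arrays 1 to 4 and 655, 727, 771 and 799 on Ac-LDL arrays 1 to 4. The Ac-LDL arrays lay between the lowest and highest control arrays. Its log2 intensity averaged 9.35 ± 0.39 in control and 9.56 ± 0.10 with Ac-LDL (SD, n = 4 each), a log2 fold change of 0.21 with an interval of -0.18 to 0.60 (adjusted p = 0.975 from limma, exact two-sided permutation p = 0.40). The difference was 0.47 on slide 1 and -0.05 on slide 2, so that it did not hold within both slides.

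*Cd86* was dim but detected by all 3 probes on every array, at signals between 59.1 and 115. Probe ILMN_2743244 went from 6.00 ± 0.29 (SD, n = 4) to 6.16 ± 0.28 (SD, n = 4), with pair differences of 0.18, 0.14, 0.21 and 0.10. The log2 fold change of 0.16 had an interval of -0.23 to 0.55 (adjusted p = 0.986 from limma). Probe ILMN_1217041 shares 49 of its 50 bases with ILMN_2743244, yet its log2 fold change was -0.03 and it was higher with Ac-LDL in 1 of 4 pairs. The steady small rise of the one was therefore not seen with its near-identical neighbour. The remaining probe, ILMN_1216386, had a log2 fold change of -0.07, with -0.23 on slide 1 and 0.10 on slide 2. Without a block, the lowest end of the intervals of the 3 probes was -0.40 and the highest 0.55 on the log2 scale. As the signals lay close to the lowest detected ones, these ends do not bound the difference in *Cd86* RNA.

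**Figure D3:**
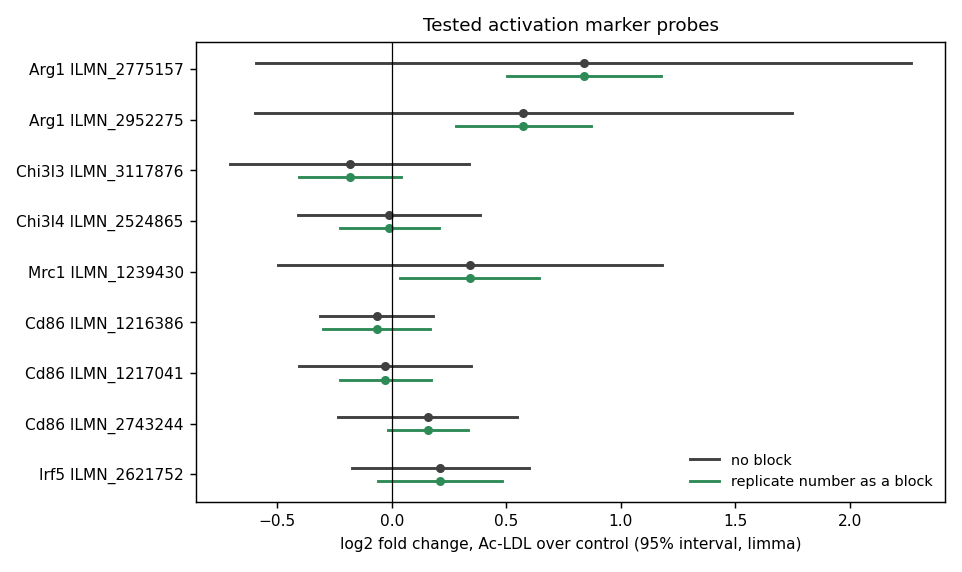
Log2 fold change of Ac-LDL over control (horizontal axis) for the 9 tested probes, with 95% intervals from limma without a block (grey) and under a replicate block (green). Without a block all 9 intervals include 0, and with the block those of both *Arg1* probes and *Mrc1* do not, although none of the 3 passed the adjusted threshold.

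Genes around the markers were taken from lists and given by the brightest tested probe of each gene. The median log2 fold change of all tested probes was 0.00, with 50.4% of them higher. Of 12 genes of IL-4 receptor signalling, 11 were tested, 7 higher and 4 lower, with 0 called and a median of 0.02. *Stat6*, the transcription factor of that receptor, was at 0.02. The 2 largest in absolute size were *Il2rg*, the common gamma chain, at -0.14 and *Jak1*, a receptor kinase, at -0.11. The brightest were the phosphatases *Ptpn11*, at 0.02, and *Ptpn6*, at 0.09, the highest value of the list. No log2 fold change in the list was larger than 0.14 in size.

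Of 25 other alternative activation markers on the array, 14 were tested, 6 higher and 8 lower, with 0 called and a median of -0.02. *Klf4*, a transcription factor induced by IL-4, averaged 6.55 ± 0.16 in control and 6.06 ± 0.12 with Ac-LDL (SD, n = 4 each), lower in all 4 pairs by a mean of 0.50 on the log2 scale. Its adjusted p from limma was 0.294, and 0.0938 with the replicate block. *Mgl2*, a lectin gene, had a log2 fold change of 0.50 in the other direction, higher in 4 of 4 pairs (adjusted p = 0.967 from limma). The brightest were *Tgm2*, a transglutaminase, at 0.26 and *Fn1*, the fibronectin gene, at 0.19. *Ccl17*, *Ccl22*, *Cd163*, *Pdcd1lg2*, *Cd209a*, *Retnlg* and *Atp6v0d2* were detected on 0 arrays. The list thus held members in both directions and gave no common shift.

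Of 24 other classical activation markers, 10 were tested, 6 higher and 4 lower, with 0 called and a median of 0.00. *Il15*, a cytokine gene, had a log2 fold change of 0.38 (adjusted p = 0.961 from limma) and *Tnf*, the gene of tumour necrosis factor, of -0.31 (adjusted p = 0.960 from limma). The brightest were *Irf1*, at -0.10, and *Socs3*, at 0.00. *Il1b*, *Il12a*, *Il12b*, *Il23a*, *Ptgs2*, *Cxcl9*, *Gpr18*, *Cd38*, *Il15ra* and *Slamf1* were detected on 0 arrays, as *Nos2* was. The genes of interleukin-1 beta and of both interleukin-12 subunits were thus not measurable in either group.

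The arginine genes around *Arg1* and *Nos2* were also compared, and 8 of 13 were tested, 2 higher and 6 lower, with 0 called and a median of -0.05. *Gch1*, which makes a cofactor of nitric oxide synthase, averaged 11.00 ± 0.15 in control and 10.65 ± 0.08 with Ac-LDL (SD, n = 4 each), lower in all 4 pairs (log2 fold change -0.35, adjusted p = 0.685 from limma). *Ass1*, argininosuccinate synthase, was at -0.18 and *Oat*, ornithine aminotransferase, at -0.02. *Arg2*, the gene of the mitochondrial arginase, was detected on 0 arrays. Of the other interferon regulatory factors, 5 of 7 were tested, 1 higher and 4 lower, with 0 called. *Irf8* was at 0.15, *Irf1* at -0.10, *Irf3* at -0.03 and *Irf2* at 0.00.

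**Figure D4:**
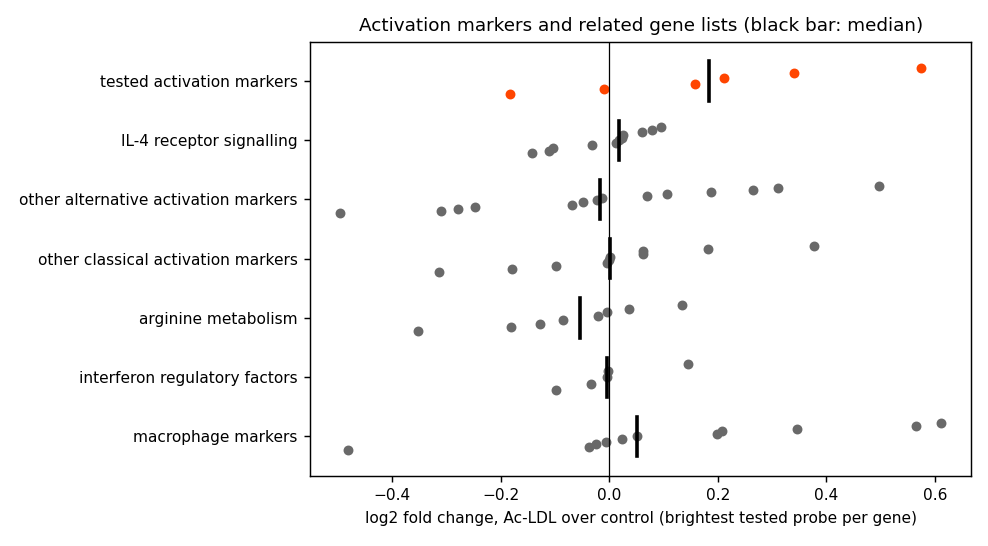
Log2 fold change of Ac-LDL over control (horizontal axis) for the tested activation markers and the genes of 6 related lists, 1 point per gene by its brightest tested probe, with a black bar at the median of each list. *Arg1* lies at 0.57, the related lists scatter on both sides of 0, and the medians of the related lists lie between -0.05 and 0.05.

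Of the 11 macrophage markers, 7 were higher and 4 lower, with 0 called without a block and 1 with the replicate block. That gene was *Mertk*, which encodes a receptor for the uptake of dead cells, and its log2 fold change was 0.56 (adjusted p = 0.817 from limma, and 0.0364 with the replicate block). *Fcgr1*, a receptor for immunoglobulin G, was at 0.61 and *Cd14*, a co-receptor for endotoxin, at -0.48, and neither was called. The brightest, the lysozyme probes named *Lyz* and *Lyz2*, were at 0.05 and -0.01. Over the 4 control arrays the SD of log2 intensity in this list ran from 0.0481 for *Lyz* to 0.865 for *Emr1*. That of *Mrc1* was 0.833, so a wide spread was not particular to the activation markers. Markers of eosinophils, B cells, T cells, neutrophils and dendritic cells each had 1 tested gene, and those of mast cells had 0, with summed signals over 4 or 5 genes of 147 to 245. The log2 fold changes of the tested genes were 0.03 for *Il5ra*, -0.11 for *Ms4a1*, -0.18 for *Lck*, 0.20 for *Ltf* and 0.13 for *Zbtb46*, with 0 called. Mesothelial and fibroblast markers were measurable, as 5 of 6 were tested and their summed signal was 4451 to 6274 on control arrays and 4446 to 4804 on Ac-LDL arrays. *Upk3b* was at 0.07, *Col1a1* at 0.05, *Col1a2* at -0.23 and *Col3a1* at -0.21, with 0 called, and the part of such cells in the marker values was not tested.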

How the data were processed

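The deposited table holds 4 measures per array, exported from BeadStudio per the labels. The authors deposited the mean bead intensity without background correction or normalization, the detection p-value against negative controls, the bead standard error as an intensity, and the number of beads (median 43 or 44 per array). Their own normalized values were not used, and the genome build is not given in the sources used here. Replicate number was treated as pairing the samples in the pair differences and the replicate block only, since the labels number biological replicates alike in both groups. The deviations of same-numbered arrays correlated across probes at 0.579, 0.479, 0.468 and 0.629. Differently numbered arrays of the 2 groups correlated at 0.188 to 0.447 on the same slide and at -0.546 to -0.318 on different slides. Same-numbered arrays share a slide, so their correlation holds the slide as well as the number.

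Intensities were corrected by normexp with negative controls inferred from the detection p-values (offset 16), quantile normalized and log2 transformed with limma 3.58.1 in R 4.3.3. Probes detected (limit 0.05) on 4 or more of 8 arrays were fitted together, 17122 probes of 12423 symbols. The 2 groups were compared by limma's moderated test without a block, following the unpaired test of the study, with the replicate block as an alternative, and Benjamini-Hochberg adjustment over all tested probes. The number of arrays limits the precision of each value, and p-values set a group difference against the spread between these samples left over in each fit. Exact permutation tests used 70 assignments without regard to replicate number or slide, with a smallest p of 0.0286. The procedure was run on simulated data with a replicate effect as large as the residual spread and with no slide effect. That setting is not the one of these arrays, where the slides differed.

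The members and gene lists were chosen with earlier results of these data known. Every member was named with all probes. From each other list the genes named were those called by any of the 3 fits, up to 2 with the largest change and the 2 brightest. *Stat6*, *Emr1*, *Arg2* and the other undetected list genes were named outside this rule after their values were seen. Probes were named from the deposited symbols, and probe sequences were taken from the deposited annotation. Alternatives covered normalization, the filter, blocks, an unpaired equal-variance test and leaving out arrays.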

Additional observations from a re-analysis of the deposited data

How the results depend on the processing

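The count of member probes called was 0 under every alternative tried. Of 212 recomputed member values, 196 kept their sign and 16 turned it, 4 of these within a single slide, and none crossed the threshold. The lowest adjusted p of any member probe in limma was 0.0566, for *Arg1* ILMN_2775157 with the replicate block and both arrays of number 4 left out, and 0.0595 with the block over all arrays. The 7 probes called over all tested probes became 14 without background correction, 26 with median scaling, 0 without the filter, 76 with the replicate block, 55 with the slide block and 0 with the methods' t-test, and leaving out 1 array at a time gave 0 to 15. Alternatives chosen after seeing the data left out both arrays of a number under the replicate block and gave 41, 60, 12 and 6 for numbers 1 to 4, and the replicate block without the filter gave 2. List probes called were 0 except for 1, *Mertk*, under the replicate block, and that count was 0 with both arrays of any number left out or without the filter. The block changed no other call of a member or list gene.

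The values that turned sign were at most 0.132 in size on the log2 scale. *Chi3l4* ILMN_2524865 was 0.0087 without background correction, -0.179 to 0.124 when 1 array was left out, 0.132 within slide 1, and 0.0522 and 0.0218 with the replicate block and number 3 or 4 left out. *Cd86* ILMN_1217041 ranged from -0.127 to 0.0794 with 1 array left out and was 0.0043 with the block and number 1 left out and 0.0612 within slide 2. *Irf5* was -0.0483 within slide 2. *Chi3l3* ILMN_3117876 ranged from -0.342 to 0.0286 with 1 array left out. *Cd86* ILMN_1216386 was 0.0235 with the block and number 2 left out, -0.23 within slide 1 and 0.10 within slide 2. The cause of these shifts was not tested. Signal over background limits all statements on *Retnla*, *Chi3l3*, *Chi3l4*, *Il4ra*, *Irf4* and *Nos2*.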
